A study of Mus musculus with 80 samples.

Results

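The genes of the mouse mitochondrial genome were followed in RNA-seq libraries of the left ventricle, the main pumping chamber of the heart, from C57Bl/6J mice. The members are all 37 genes that GENCODE places on the mitochondrial chromosome, chosen by position and not by level, out of 56941 genes in the count table. They comprise 13 protein genes, 2 ribosomal RNA (rRNA) genes and 22 transfer RNA (tRNA) genes. The 80 libraries fall into 8 groups of 10, which are 4 conditions in each sex. These are a Western diet at 0 cGy, a normal diet with a mixed field at 50 cGy, a normal diet with gamma rays at 100 cGy, and a normal diet at 0 cGy, called sham here. The sham mice are the common control, so the 3 treatments of a sex share their control libraries. The titles join a letter for the sex (M or F) to a number between 1 and 40. Each group holds 5 libraries with title numbers 21 to 40 and 5 with title numbers 1 to 20, and no label tells what sets the 2 runs apart. The sources used here do not give the make-up of the mixed field, the age of the mice or the time after exposure.

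The mitochondrial chromosome is a small circle kept in many copies in each mitochondrion. Both of its strands are transcribed from end to end into long RNAs by the polymerase Polrmt, and the tRNAs that lie between most genes are cut out to release the rRNAs and messenger RNAs. The encoded proteins are core subunits of complexes I, III, IV and V of the respiratory chain, whose other subunits are encoded in the nucleus. Heart muscle is packed with mitochondria, and these transcripts are among its most abundant RNAs. In tissue as a whole, fewer cells of a type and less RNA per cell cannot be told apart.

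Library totals ran between 13484776 and 22143504 counts. The deposited identifiers matched the annotation for 56323 genes, and 15879 genes passed the filter on low counts and were tested. All 10 cardiomyocyte markers examined were detected in these ventricle libraries, with a summed level of 55284 to 82733 CPM (counts scaled to a common library total). Markers of atrial muscle summed to 2.58 to 2057 CPM over the libraries. The library labelled female gamma replicate 7 had under 1 CPM of Xist, against its label, and female mixed-field replicate 10 had the lowest median correlation with its own group of all 80 libraries (0.968 on log2 CPM across genes, with the next lowest at 0.976). Several shares and counts of members called that rest on these 2 libraries are given with and without them. Changes of single genes and marker values include both libraries unless stated.

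The sequence of the chromosome bears on what could be counted. Bases 6390 to 11042 of the mitochondrial chromosome have a copy in the nuclear genome at chr1:24650616-24655269 on the minus strand of GRCm39, and 4651 of the 4654 aligned positions were identical. The copy holds all of mt-Co2, mt-Atp8, mt-Atp6, mt-Co3, mt-Nd3 and mt-Nd4l, the first part of mt-Nd4 and the last part of mt-Co1. The sequences below come from the reference genome GRCm39 and are shown because they mark where a read can and cannot be placed. The pair of complex V genes overlaps, and the capitals in the mitochondrial sequence are the 43 bases that belong to both; the chromosome 1 copy of this stretch does not differ in any base.
mt-Atp8/mt-Atp6 (chrM:7889-8007, plus strand): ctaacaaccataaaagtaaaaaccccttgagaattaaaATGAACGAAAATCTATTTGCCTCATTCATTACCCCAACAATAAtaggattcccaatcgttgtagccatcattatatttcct
chromosome 1 copy of mt-Atp8/mt-Atp6 (chr1:24653652-24653770, minus strand): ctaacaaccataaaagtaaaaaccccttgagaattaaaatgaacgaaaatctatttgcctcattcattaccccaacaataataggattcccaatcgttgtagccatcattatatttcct

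The copy differs from mt-Nd3 at a single base, in capitals below, which is the sole mismatch inside the 6 genes that the copy holds whole.
mt-Nd3 (chrM:9431-9491, plus strand): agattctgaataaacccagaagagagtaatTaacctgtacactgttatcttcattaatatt
chromosome 1 copy of mt-Nd3 (chr1:24652168-24652228, minus strand): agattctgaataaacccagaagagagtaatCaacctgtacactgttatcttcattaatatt

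Of all 150-base windows of a gene, the share with an exact match in the nuclear genome was 100% for mt-Co2, mt-Atp8, mt-Atp6, mt-Co3 and mt-Nd4l. It was 98.5% for mt-Nd3, 59.2% for mt-Nd4, 23.6% for mt-Co1 and 0% for the other 5 protein genes and both rRNA genes. For most genes held whole by the copy, the few deposited counts were split between the loci in shares of similar size. As CPM of the library total, mt-Co2 had a mean of 160 and its copy Gm28661 of 220, against 98420 for mt-Co1. Why so few reads were counted at either locus was not tested. Of the counts on mt-Co2 and its chromosome 1 copy Gm28661, 42.5% ± 1.504 (SD, n = 80) were on mt-Co2. The same share was 41.1% ± 2.93 for mt-Atp6 against Atp6-ps, 53.9% ± 1.79 for mt-Co3 against Gm28437, 59.6% ± 4.27 for mt-Nd3 against Gm28438 and 58.7% ± 4.79 for mt-Nd4l against Gm10222. For mt-Co1 and mt-Nd4, which have stretches outside the copy, it was 99.9% and 99.8%. Reads that lie wholly within the 6 genes inside the copy therefore cannot be assigned to a locus by sequence, except across the 1 differing base of mt-Nd3. Windows that run past the end of a gene were not examined. The values of these 6 genes below are uncertain as levels of the mitochondrial transcript. The chromosome 1 copies together took 0.0674% ± 0.0294 of library counts.

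Levels of the protein genes were set side by side per kilobase of gene, as CPM of the library total per kilobase. Complex IV, cytochrome c oxidase, passes electrons to oxygen, and its catalytic subunit mt-Co1 (chrM:5328-6872) had the highest level, at 63702 CPM per kilobase with a range of 45760 to 83506. Its partners mt-Co2 (chrM:7013-7696), which receives electrons from cytochrome c, and mt-Co3, both inside the chromosome 1 copy, stood at 234 and 188 CPM per kilobase. mt-Cytb, the cytochrome b subunit of complex III, followed mt-Co1 at 35357 CPM per kilobase. Complex I, NADH dehydrogenase, has 7 subunits here. Of these, mt-Nd1 (chrM:2751-3707) stood at 28850, mt-Nd2 (chrM:3914-4951) at 18039, mt-Nd4 at 16330, mt-Nd5 at 9056 and mt-Nd6 at 8026 CPM per kilobase. The other complex I genes, mt-Nd3 and mt-Nd4l, lie inside the copy and stood at 53.2 and 29.97 CPM per kilobase. The complex V genes mt-Atp6, part of the proton channel of the ATP synthase, and mt-Atp8, a small subunit beside it, stood at 124 and 18.5 CPM per kilobase. Per kilobase, the highest library of any gene inside the copy was below the lowest library of any of the 7 other protein genes.

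**Figure D1:**
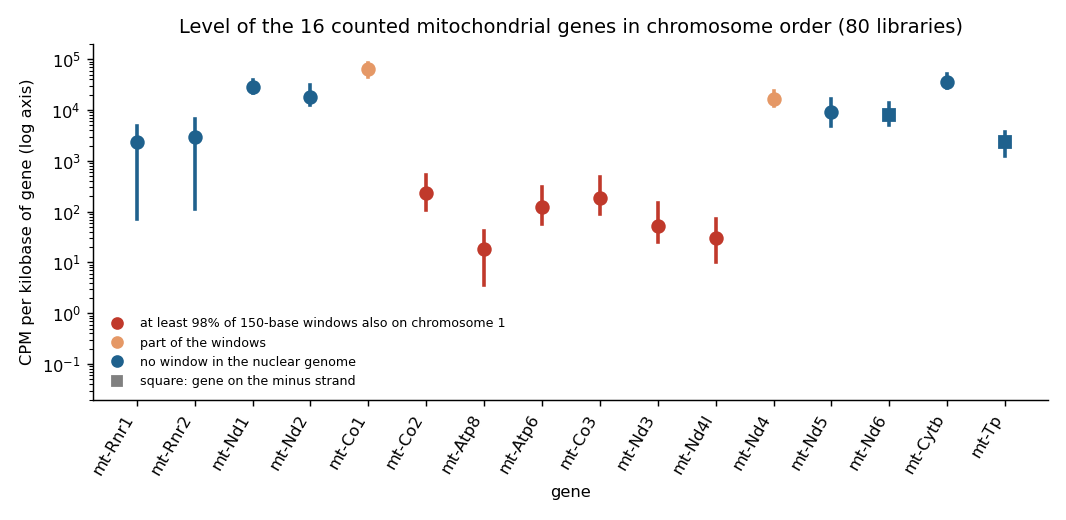
Level of the 16 tested mitochondrial genes in the order of the chromosome, as CPM per kilobase on a log axis; points are means and bars run from the lowest to the highest of 80 libraries. Colours give the share of 150-base windows with an exact match on chromosome 1. The 6 genes in red, with at least 98% of windows matched, lie between 18.5 and 234 CPM per kilobase on average, and the 7 other protein genes between 8026 and 63702.

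mt-Nd6 is the sole protein gene on the minus strand, and it meets mt-Nd5 tail to tail. The stretch is shown because a read across it fits both genes unless strand is used, and capitals mark the 14 bases they share.
mt-Nd5/mt-Nd6 (chrM:13532-13585, plus strand): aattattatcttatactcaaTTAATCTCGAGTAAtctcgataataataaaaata

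Whether the counting used strand is not given in the sources used here. Reads from mt-Nd6 and from plus-strand RNA that runs past mt-Nd5 can then not be told apart, and the same holds for mt-Tp, which lies opposite the plus strand. In mt-Co3, mt-Nd4 and mt-Cytb the annotated gene ends in a lone T, a stop codon that the poly(A) tail completes.

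The rRNAs of the mitochondrial ribosome stood at 2960 CPM per kilobase for mt-Rnr2, of the large subunit, and 2376 for mt-Rnr1, of the small subunit. Together they took 2.98% ± 1.47 of the mitochondrial counts (SD, n = 80). Their encoded 3′ ends are shown because the libraries were made by poly(A) selection, which captures RNAs by a tail that is not in the genome.
mt-Rnr1 end (chrM:965-1024, plus strand): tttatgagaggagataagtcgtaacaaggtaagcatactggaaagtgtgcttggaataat
mt-Rnr2 end (chrM:2616-2675, plus strand): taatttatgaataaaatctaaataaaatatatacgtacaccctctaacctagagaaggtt

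Of the 22 tRNA genes, 19 were listed at 0 in all 80 libraries. mt-Tf had 3 counts in 2 libraries and mt-Tl1 had 1 count in 1 library. mt-Tp, the tRNA for proline, was the exception, with a mean of 2587 counts per library and a range of 1472 to 3700, or 2341 CPM per kilobase. It is printed because it is the sole tRNA that could be tested.
mt-Tp (chrM:15356-15422, minus strand): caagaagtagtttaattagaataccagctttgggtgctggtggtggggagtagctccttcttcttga

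In all, 18 of the 37 members had any count and 16 were tested, which are the 13 protein genes, both rRNA genes and mt-Tp. The other 21 members, all tRNA genes, enter only the sums.

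The 37 genes took 23.6% ± 2.81 of the counts of a library (SD, n = 80), with a lowest share of 18.8%, a median of 23.8% and a highest of 31.3%. The 13 protein genes alone took 22.9% ± 2.80. Among the mitochondrial counts, mt-Co1 held 41.8%, mt-Cytb 17.1%, mt-Nd1 11.7%, mt-Nd4 9.52%, mt-Nd2 7.92% and mt-Nd5 6.99%.

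No treatment group was set apart from its sham group by this share. In males it was 22.9% ± 2.5 on the Western diet, 22.8% ± 3.68 after the mixed field and 22.2% ± 1.97 after gamma rays, against 23.1% ± 2.29 in sham mice (SD, n = 10 each). In females it was 25.4% ± 2.09 on the Western diet, 22.9% ± 4.05 after the mixed field and 25.3% ± 1.83 after gamma rays, against 24.3% ± 2.15 in sham mice (SD, n = 10 each). The differences from sham in males were -0.253 (SE 1.07), -0.340 (SE 1.37) and -0.917 (SE 0.954) percentage points in that order of treatments. In females they were 1.04 (SE 0.948), -1.46 (SE 1.45) and 0.961 (SE 0.893) percentage points. All 6 pairs of groups overlapped. Within the runs the female differences took opposite signs: after the mixed field 0.333 points (SE 1.95) at numbers 21 to 40 and -3.25 points (SE 1.16) at numbers 1 to 20, and after gamma rays -0.863 points (SE 1.07) and 2.78 points (SE 1.27). In males after gamma rays they were 0.299 points (SE 1.70) and -2.13 points (SE 0.842) in the same order of runs. These groups overlapped within each run too. Without the 2 doubted libraries the difference was -2.39 points (SE 1.19) after the mixed field and 1.27 points (SE 0.873) after gamma rays in females.

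Between the runs of title numbers the share differed in opposite directions in the sexes. In males it was 21.8% ± 2.32 at numbers 21 to 40, against 23.6% ± 2.61 at numbers 1 to 20, a difference of -1.81 points (SE 0.781). In females it was 25.3% ± 2.31 at numbers 21 to 40, against 23.6% ± 2.97 at numbers 1 to 20, a difference of 1.75 points (SE 0.841). Males were therefore below females at numbers 21 to 40, by a difference of -3.49 points (SE 0.733), while at numbers 1 to 20 the difference was 0.066 points (SE 0.883). Each of these pairs overlapped. The widest gap within a group was in mixed-field females, at 25.6% ± 3.91 for numbers 21 to 40 and 20.1% ± 1.53 for numbers 1 to 20 (SD, n = 5 each). The runs overlapped there, since replicate 7 was at 20.7% and replicate 4 at 22.8%. Leaving out the 2 doubted libraries, the difference in these females was 4.13 points (SE 1.49), that of all females 1.57 points (SE 0.792), and that of males from females at numbers 21 to 40 was -3.32 points (SE 0.676).

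**Figure D2:**
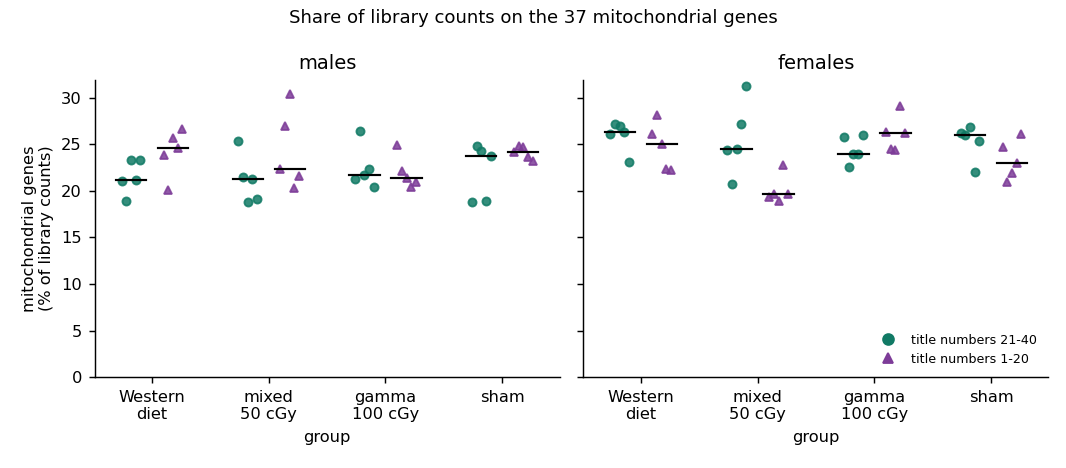
Percent of library counts on the 37 mitochondrial genes in each of 80 libraries, by condition, with males and females in separate panels; circles are title numbers 21 to 40, triangles are numbers 1 to 20, and lines are medians. Values lie between 18.8% and 31.3%, the treated groups overlap their sham groups, and the runs part most in mixed-field females.

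The balance among the complexes was narrower than the share itself. Of the counts on the 13 protein genes, complex IV held 43.2% ± 2.07, with a range of 37.5% to 47.0%, and complex I held 39.1% ± 1.40, with a range of 36.4% to 42.6% (SD, n = 80). Complex III, which is mt-Cytb alone, held 17.7% ± 0.927, and complex V, whose genes are both inside the chromosome 1 copy, held 0.0381% ± 0.0127. Complex IV was mt-Co1 almost alone, with 130108295 of its 130516812 counts over all libraries, and mt-Co2 and mt-Co3 lie inside the copy. In complex I, mt-Nd3 and mt-Nd4l inside the copy held 24525 and 11912 of 118067768 counts. The balance therefore reads mt-Co1 against mt-Cytb and the complex I genes outside the copy. With both runs of title numbers pooled, the treatments left the balance within the spread of the libraries. Comparisons of the balance with sham inside a single run are not given here. In males complex I held 39.4% ± 1.31 on the Western diet, 39% ± 1.3 after the mixed field and 39.5% ± 1.43 after gamma rays, against 39.6% ± 1.12 in sham mice (SD, n = 10 each). In females it held 38.8% ± 1.61 on the Western diet, 39.3% ± 1.62 after the mixed field and 38.3% ± 1.26 after gamma rays, against 38.7% ± 1.44 in sham mice (SD, n = 10 each). Complex IV in males held 42.6%, 43.4% and 42.6% in that order of treatments, against 42.7% in sham mice. In females it held 43.5%, 42.4% and 44.6%, against 43.8% in sham mice. All of these groups overlapped their sham group.

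Between the runs of title numbers the balance shifted in opposite directions in the sexes. In males complex I held 38.9% at numbers 21 to 40, against 39.9% at numbers 1 to 20, a difference of -1.01 points (SE 0.370), and complex IV held 43.4% against 42.3%, a difference of 1.09 points (SE 0.566). In females complex I held 39.7% at numbers 21 to 40, against 37.9% at numbers 1 to 20, a difference of 1.78 points (SE 0.377). Complex IV in females held 42.6% at numbers 21 to 40, against 44.5% at numbers 1 to 20, a difference of -1.96 points (SE 0.640). With both doubted libraries left out, the female differences were 1.71 points (SE 0.368) for complex I and -1.81 points (SE 0.636) for complex IV. The clearest separation was in Western-diet males. There complex I held 38.6%, 38.2%, 37.8%, 38.3% and 38.5% in the 5 libraries at numbers 21 to 40, against 41.5%, 40.7%, 40.2%, 40.8% and 39.8% in the 5 at numbers 1 to 20. Complex IV held 43.5%, 44.7%, 44.5%, 44.7% and 43.5% at numbers 21 to 40, against 40.3%, 40.7%, 41.5%, 40.5% and 41.8% at numbers 1 to 20. Neither complex overlapped between the runs in these males.

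Members were then tested one at a time with edgeR's quasi-likelihood test, with p-values adjusted by Benjamini-Hochberg over all 15879 genes and called at an adjusted p under 0.05. Changes are log2 ratios of the treated to the sham group on TMM-scaled counts, with their standard errors. No mitochondrial gene was called in any comparison of a treatment with sham, in either sex or in the mean of the sexes. Each comparison is read against the share of all tested genes that were called in it.

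On the Western diet, 0 of 16 members were called in males, where 0.397% of all genes were called (0.195% higher and 0.202% lower), and no member was under an unadjusted p of 0.05. The member of smallest p was mt-Rnr2, with 192, 2049 and 5333 CPM as lowest, median and highest value in Western-diet males, against 253, 5338 and 7206 CPM in sham males. Both groups thus held libraries at low and at high levels, and they overlapped. The log2 change was -0.94 (SE 0.545, edgeR adjusted p = 0.468). In females 0 of 16 members were called, against 0.0189% of all genes (0.0126% higher and 0.0063% lower), and the smallest p was that of mt-Nd3, at 11.2, 19.9 and 35.5 CPM on the Western diet and 11.7, 17.6 and 21.1 CPM in sham mice. Its log2 change was 0.28 (SE 0.221, edgeR adjusted p = 0.808). In the mean of the sexes 0 members and 0% of all genes were called, with mt-Nd3 again of smallest p, at 0.20 (SE 0.157, edgeR adjusted p = 0.674). The median log2 change of the 16 members was -0.0032 in males, beside -0.0054 over all genes, and 0.077 in females, beside 0.0036 over all genes.

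After the mixed field, 0 of 16 members were called in males, where 0.0693% of all genes were called (0.0378% higher and 0.0315% lower). The smallest p was that of mt-Nd4, at 16076, 21596 and 27686 CPM after the mixed field and 17101, 23553 and 27440 CPM in sham males, which overlapped over most of their length. Its log2 change was -0.09 (SE 0.108, edgeR adjusted p = 0.878). In females 0 of 16 members and 0% of all genes were called. The smallest p was that of mt-Co1, at 76889, 87561 and 120756 CPM after the mixed field and 83388, 107468 and 120865 CPM in sham females. The medians differed while the ranges nearly coincided, and the log2 change was -0.18 (SE 0.097, edgeR adjusted p = 0.794). In the mean of the sexes 0 members and 0% of all genes were called, and the smallest p was that of mt-Co2, at 0.18 (SE 0.142, edgeR adjusted p = 0.954). No member was under an unadjusted p of 0.05 in these 3 comparisons.

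After gamma rays, 0 of 16 members were called in males, where 0.176% of all genes were called (0.17% higher and 0.0063% lower). The smallest p was that of mt-Tp, at 99.3, 145 and 191 CPM after gamma rays and 116, 178 and 231 CPM in sham males, with a log2 change of -0.22 (SE 0.137, edgeR adjusted p = 0.966). In females 0 of 16 members and 0% of all genes were called. mt-Nd4l, a small membrane subunit of complex I, had 10.1, 12.9 and 21.8 CPM after gamma rays and 6.74, 8.68 and 14.9 CPM in sham females. It was the single member under an unadjusted p of 0.05 there, with a log2 change of 0.56 (SE 0.195, edgeR adjusted p = 0.381), and its groups overlapped. In the mean of the sexes 0 members and 0% of all genes were called, and mt-Nd4l stood at 0.23 (SE 0.141, edgeR adjusted p = 0.519). The median log2 change of the members was -0.11 in males, beside 0.0034 over all genes, and 0.12 in females, beside -0.0033 over all genes.

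The mixed field was also set against gamma rays, at doses that differ. In males 0 of 16 members were called, where 0.573% of all genes were called (0.239% higher and 0.334% lower), and the smallest p was that of mt-Tp at 0.22 (SE 0.137, edgeR adjusted p = 0.701). In females 0 of 16 members were called, where 0.0252% of all genes were called (0.0063% higher and 0.0189% lower). mt-Co1 had 76889, 87561 and 120756 CPM after the mixed field, against 91236, 111188 and 133304 CPM after gamma rays, and the log2 change was -0.26 (SE 0.097, edgeR adjusted p = 0.241). It was 1 of 2 members under an unadjusted p of 0.05 there.

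The treatments' effects were compared between the sexes as male minus female differences of log2 change. No member was called for the diet, where 0.447% of all genes were called (0.195% higher and 0.252% lower) and mt-Rnr2 had the smallest p at -1.03 (SE 0.767, edgeR adjusted p = 0.734). None was called for the mixed field, where 0.0315% of all genes were called (0.0063% higher and 0.0252% lower) and mt-Co1 stood at 0.20 (SE 0.137, edgeR adjusted p = 0.677). None was called for gamma rays, where 0% of all genes were called and mt-Nd4l stood at -0.65 (SE 0.282, edgeR adjusted p = 0.820). Among these 3 differences, mt-Nd4l under gamma rays was the single member under an unadjusted p of 0.05. Without the 2 doubted libraries, 0 members were called in each of the 14 comparisons of treatments and of their effects between the sexes.

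**Figure D3:**
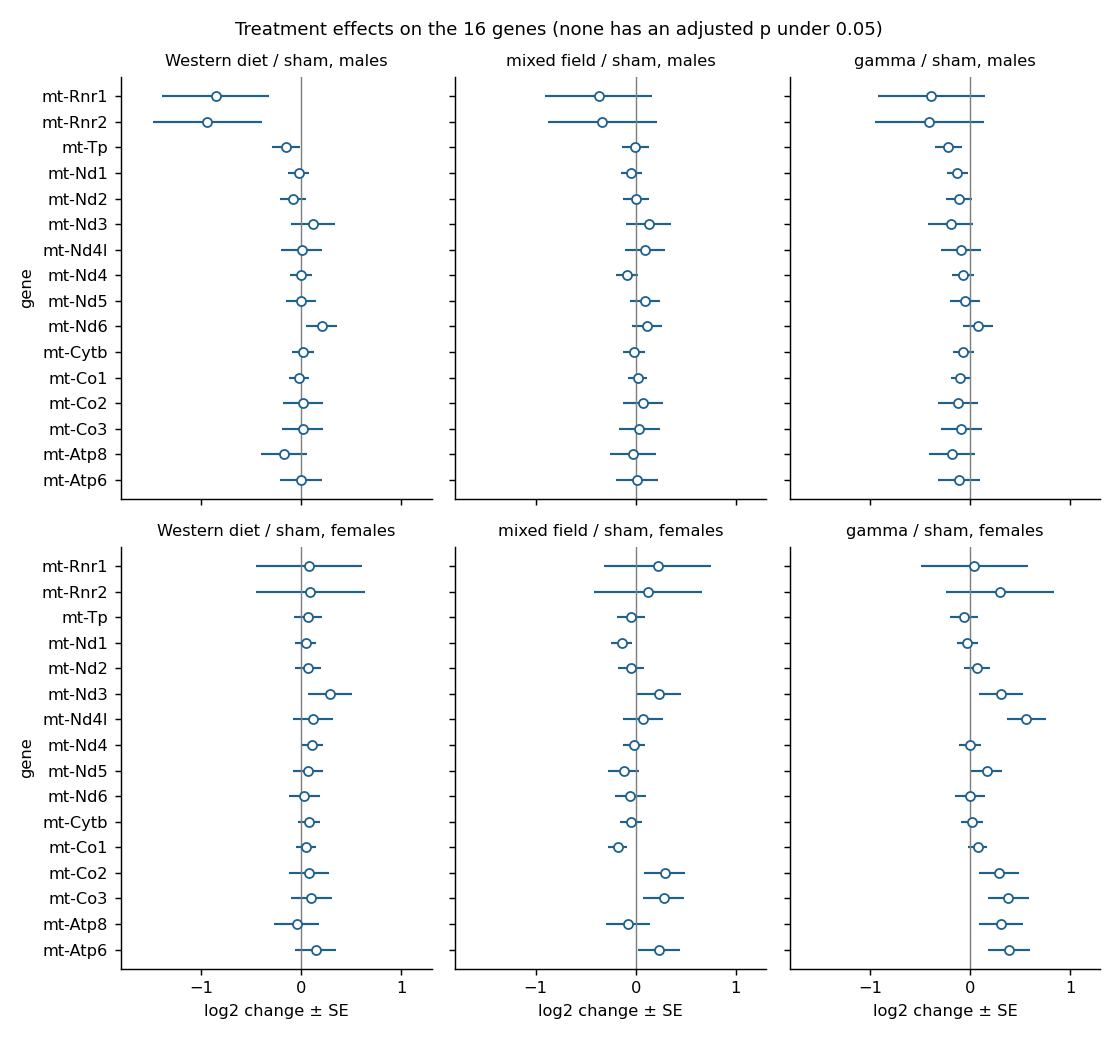
Log2 change of the 16 tested mitochondrial genes for each treatment against sham, with males and females apart; bars are standard errors and open points did not pass an adjusted p of 0.05 in edgeR. No point is filled, and the rRNA genes have the widest bars.

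Within a single run of title numbers, with 5 libraries per group, some comparisons did call members. At numbers 1 to 20, Western-diet males had 2 lower members, mt-Rnr1 at -3.74 (SE 0.904, edgeR adjusted p = 0.0233) and mt-Rnr2 at -4.17 (SE 0.907, edgeR adjusted p = 0.0169), where 2.92% of all genes were called. mt-Rnr2 had 192, 200, 244, 269 and 276 CPM in these Western-diet males, against 5432, 4743, 5244, 5735 and 253 CPM in sham males, so a sham library lay inside the low range. At numbers 21 to 40 the same comparison called 0 members and 0% of all genes. There mt-Rnr2 had 4965, 3822, 5333, 5019 and 5032 CPM in Western-diet males, against 4582, 6606, 7206, 2757 and 6015 CPM in sham males. Tested directly, the change of the diet's effect between the runs was not called for mt-Rnr2, at 4.01 (SE 0.894, edgeR adjusted p = 0.0606), nor for any other member, where 0.0315% of all genes were called.

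In females, mixed field against gamma rays gave opposite calls in the 2 runs, all of them in genes inside the chromosome 1 copy. At numbers 1 to 20, 5 members were lower, where 0.238% of all genes were called: mt-Co2 at -1.03, mt-Atp6 at -1.12, mt-Co3 at -1.19, mt-Nd3 at -1.17 and mt-Nd4l at -0.99. mt-Co2 had 84.97, 110, 97.2, 127 and 114 CPM after the mixed field, against 138, 143, 157, 369 and 290 CPM after gamma rays, without overlap. At numbers 21 to 40, 2 members were higher, where 2.66% of all genes were called, mt-Co2 at 0.67 and mt-Nd3 at 0.83, each with an edgeR adjusted p of 0.0439. There mt-Co2 had 258, 201, 341, 383 and 326 CPM after the mixed field, against 226, 166, 179, 174 and 198 CPM after gamma rays. Without female gamma replicate 7, which had 166 CPM, and female mixed-field replicate 10, which had 326 CPM, the comparison at numbers 21 to 40 called 0 members and 0% of all genes. The changes of the mixed field's and of the gamma rays' effect against sham between the runs called 0 members in females, where 1.39% and 0% of all genes were called. Without the 2 doubted libraries these changes again called 0 members in females, where 0.275% and 0% of all genes were called. With all libraries, they called 0 members in males too, where 0.0252% and 0% of all genes were called. The diet's effect in females did likewise with 0% of all genes. No other comparison of a treatment with sham called a member within a run.

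The runs of title numbers themselves divided the male libraries by their mitochondrial rRNA. The rRNA share of the mitochondrial counts was under 1% in 13 of the 80 libraries, where it lay between 0.103% and 0.205%, and between 2.19% and 6.25% in the other 67, with no value in between. Of the 20 males at numbers 1 to 20, 12 were on the low level, namely all 5 on the Western diet, 3 after the mixed field, 3 after gamma rays and 1 sham mouse. None of the 20 males at numbers 21 to 40 was. Among the females, the low level held 1 of 20 libraries at numbers 1 to 20, on the Western diet, and 0 of 20 at numbers 21 to 40. In Western-diet males the rRNA share was 4.06%, 3.33%, 3.43%, 3.86% and 3.20% at numbers 21 to 40, against 0.130%, 0.205%, 0.153%, 0.194% and 0.176% at numbers 1 to 20.

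mt-Rnr2 had 2757, 5152 and 7206 CPM as lowest, median and highest value in males at numbers 21 to 40, against 171, 272 and 5735 CPM at numbers 1 to 20. mt-Rnr1 had 1908, 2701 and 3983 CPM at numbers 21 to 40, against 86.4, 201 and 3579 CPM at numbers 1 to 20. For both rRNAs the low median comes from the 12 libraries on the low level, while the other 8 were on the higher level. In the fit with 1 mean for each group and run, mt-Rnr2 was higher at numbers 21 to 40 by a log2 change of 1.89 (SE 0.315, edgeR adjusted p = 2.96e-06) and mt-Rnr1 by 1.67 (SE 0.319, edgeR adjusted p = 3.49e-05). In this comparison 29.8% of all genes were called, 17% higher and 12.8% lower.

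The nuclear 18S rRNA gene Rn18s-rs5 moved with these values in part of the libraries, and its part in the result was not tested. In male sham libraries at numbers 1 to 20, the mitochondrial rRNA share was 3.48%, 3.06%, 2.94%, 3.50% and 0.182%, and Rn18s-rs5 took 1.95%, 1.58%, 1.63%, 1.79% and 0.293% of library counts in the same order. In the 13 libraries on the low level, Rn18s-rs5 took 0.102% to 0.419% of library counts, near the low end of its range of 0.102% to 5.03% over all libraries. In the 67 on the higher level it took 0.400% to 5.03%, so the ranges overlapped. The 20 females at numbers 21 to 40, all on the higher level, had 0.400% to 0.776%. In females Rn18s-rs5 had 3974, 4895 and 7368 CPM at numbers 21 to 40, against 1031, 37075 and 56131 CPM at numbers 1 to 20, while mt-Rnr2 had 2968, 4780 and 9388 CPM, against 202, 6259 and 11976 CPM. Neither mitochondrial rRNA gene was called between the runs in females, with log2 changes of -0.39 (SE 0.305, edgeR adjusted p = 0.373) for mt-Rnr2 and -0.62 (SE 0.311, edgeR adjusted p = 0.141) for mt-Rnr1.

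**Figure D4:**
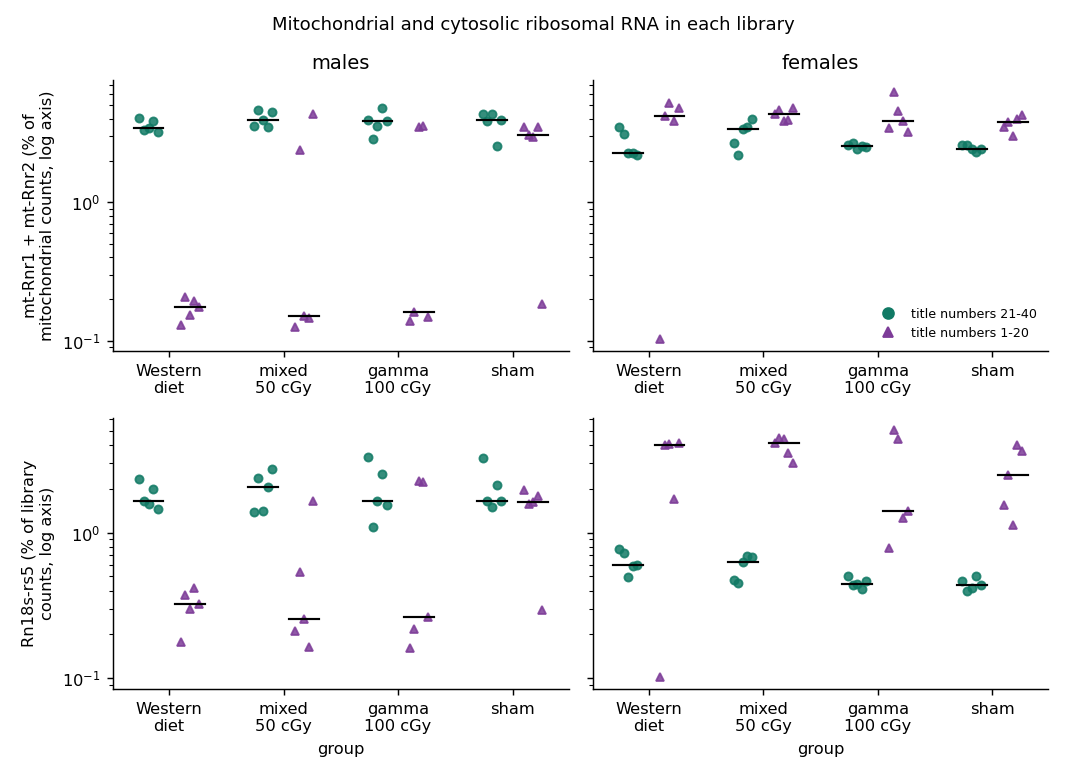
Mitochondrial rRNA as percent of mitochondrial counts, and Rn18s-rs5 as percent of library counts, in each of 80 libraries on log axes, by condition and sex; circles are title numbers 21 to 40, triangles are numbers 1 to 20. A gap between 0.205% and 2.19% separates 13 libraries from 67 in the mitochondrial rRNA, and 12 of the 13 are males at numbers 1 to 20.

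Of the other members in males, 1 was higher and 6 were lower at numbers 21 to 40, so that 9 of 16 were called in all. mt-Tp was higher, with 116, 165 and 233 CPM at numbers 21 to 40 and 76.6, 139 and 202 CPM at numbers 1 to 20, and a log2 change of 0.29 (SE 0.0876, edgeR adjusted p = 0.00875). mt-Nd6 was lower, with 2712, 3544 and 5557 CPM at numbers 21 to 40, against 2836, 4693 and 7675 CPM at numbers 1 to 20. The ranges overlapped, and the log2 change was -0.38 (SE 0.0818, edgeR adjusted p = 0.000232). mt-Nd5, a proton-pumping subunit of complex I, was lower by a log2 change of -0.39 (SE 0.0922, edgeR adjusted p = 0.000732), mt-Nd2 of -0.26, mt-Cytb of -0.21, mt-Nd1 of -0.18 and mt-Co1 of -0.16. The calls of mt-Nd1 and mt-Co1, with edgeR adjusted p = 0.0344 and 0.0435, ended when 11 and 22 of the 80 libraries were left out singly, at adjusted p up to 0.0796 and 0.0987. The 6 genes inside the chromosome 1 copy were not called in males, with log2 changes between -0.22 and -0.07. Markers of cell types moved with these runs too. In males the 10 cardiomyocyte markers summed to 71411 CPM ± 4893 at numbers 21 to 40 and 66141 CPM ± 5404 at numbers 1 to 20 (SD, n = 20 each), with overlap. The 6 fibroblast markers summed to 871 CPM at numbers 21 to 40 and 1130 CPM at numbers 1 to 20 in males, with 4 of 6 called lower. Of the 5 atrial markers 3 were called lower and Bmp10 higher at 2.49, and their sum was 6.84 to 2057 CPM at numbers 21 to 40 (median 10.03) and 10.1 to 1010 CPM at numbers 1 to 20 (median 164). All 3 tested adipocyte markers of 5 were called lower, with a sum of 0 to 19.9 CPM at numbers 21 to 40 (median 0.586) and 0.256 to 15.9 CPM at numbers 1 to 20 (median 5.02). Of the blood cell markers 1 of 5 was called higher, Hbb-bs at 1.2, and of the endothelial ones 2 of 6, near the 29.8% of all genes called. The part of these in the mitochondrial values was not tested.

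By condition in males, the Western diet held all of the calls. It had 2 members higher at numbers 21 to 40 and 1 lower, where 12.6% of all genes were called. mt-Rnr1 had 3323, 2087, 2622, 3116 and 2375 CPM there, against 115, 196, 164, 206 and 207 CPM at numbers 1 to 20, and mt-Rnr2 also had no overlap. The log2 changes were 3.93 (SE 0.699, edgeR adjusted p = 6.67e-05) for mt-Rnr1 and 4.36 (SE 0.699, edgeR adjusted p = 1.16e-05) for mt-Rnr2. mt-Nd6 had 3379, 2951, 3740, 3597 and 3988 CPM at numbers 21 to 40, against 5415, 4582, 5602, 4974 and 6012 CPM at numbers 1 to 20, without overlap, and a log2 change of -0.59 (SE 0.164, edgeR adjusted p = 0.00963). Mixed-field, gamma and sham males had 0 members called between the runs, where 3.31%, 3.21% and 2.94% of all genes were called. Whether the run difference was larger on the Western diet than in sham males is the change of the diet's effect given above, which was not called for any member.

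In females the runs divided other genes. At numbers 21 to 40, 9 of 16 members were higher and 0 lower, where 24% of all genes were called and 11.9% were higher. They were all 6 genes inside the chromosome 1 copy, together with mt-Nd2, mt-Nd5 and mt-Nd6. mt-Co2 had 166, 207 and 383 CPM at numbers 21 to 40, against 80.2, 129 and 369 CPM at numbers 1 to 20, and mt-Atp6 had 95.0, 119 and 192 CPM against 42.0, 69.2 and 214 CPM. The medians were well apart while gamma replicates 4 and 5 of numbers 1 to 20, at 369 and 290 CPM for mt-Co2 and 214 and 172 CPM for mt-Atp6, reached into the upper range. With the 2 doubted libraries left out, 8 members were higher. The log2 changes were 0.73 (SE 0.0934, edgeR adjusted p = 7.77e-09) for mt-Co2, 0.74 (SE 0.103, edgeR adjusted p = 8.31e-08) for mt-Atp6 and 0.65 (SE 0.103, edgeR adjusted p = 1.52e-06) for mt-Co3. mt-Nd3 and mt-Nd4l each stood at 0.45, and mt-Atp8 at 0.38 with an edgeR adjusted p = 0.0395 that rose to as much as 0.0918 when single libraries were left out. mt-Nd6 had 3832, 4724 and 7564 CPM at numbers 21 to 40, against 2578, 3653 and 4414 CPM at numbers 1 to 20, and a log2 change of 0.46 (SE 0.0819, edgeR adjusted p = 2e-05). mt-Nd5 stood at 0.34 and mt-Nd2 at 0.29. The 4 most abundant members were not called, with mt-Co1 at 0.03 (SE 0.0638), mt-Cytb at 0.12 (SE 0.0666), mt-Nd1 at 0.03 (SE 0.0658) and mt-Nd4 at 0.04 (SE 0.0685).

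By condition in females, mixed-field mice had 11 members higher at numbers 21 to 40, where 16% of all genes were called, and mt-Co2 stood at 1.5 (SE 0.190, edgeR adjusted p = 1.91e-07) and mt-Nd6 at 0.86 (SE 0.165, edgeR adjusted p = 0.000288). mt-Co2 had 258, 201, 341, 383 and 326 CPM at numbers 21 to 40, against 84.97, 110, 97.2, 127 and 114 CPM at numbers 1 to 20, without overlap. Without the 2 doubted libraries the count in mixed-field females was 5, where 6.75% of all genes were called. The changes of single genes and the marker values given here for these females include replicate 10. Macrophage markers moved with this comparison, with 4 of 6 called lower and a sum of 139 to 185 CPM at numbers 21 to 40 and 204 to 325 CPM at numbers 1 to 20, without overlap. Fibroblast markers summed to 532 to 1052 CPM and 1000.1 to 1453 CPM in the same order, with 2 of 6 called lower. Of the cardiomyocyte markers 2 of 10 were higher and 2 lower, among them Ttn at -0.92, and 1 of 6 endothelial markers, Kdr, was lower. Over all females the runs had 1 cardiomyocyte marker higher and 2 lower, 2 endothelial markers higher and 1 macrophage marker lower, beside 24% of all genes called. The part of these in the mitochondrial values was not tested. Western-diet females had 6 members higher, which were the 6 genes inside the chromosome 1 copy, where 5.5% of all genes were called. Gamma and sham females had 0 members called, where 1.66% and 0.812% of all genes were called. The signs differed there. The 6 genes inside the copy had log2 changes of -0.71 to -0.21 in gamma females and of 0.28 to 0.65 in sham females. The change of the gamma rays' effect between the runs, given above, was not called for any member.

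The difference between the sexes in the run effect was called for 12 of 16 members, where 26.9% of all genes were called. The male change minus the female change was positive for mt-Rnr1 at 2.29 (SE 0.444), mt-Rnr2 at 2.28 (SE 0.436) and mt-Tp at 0.39 (SE 0.124). It was negative for 9 protein genes, from -0.84 (SE 0.145) for mt-Atp6 and -0.83 (SE 0.116) for mt-Nd6 to -0.32 (SE 0.0942) for mt-Cytb. mt-Nd1, mt-Co1, mt-Nd4 and mt-Atp8 were not called. With the sum of the 37 genes as the library size, which reads each member against the others, the run calls in males were 3 higher, the rRNAs and mt-Tp, and 2 lower, mt-Nd5 at -0.21 and mt-Nd6 at -0.21, where 30.6% of all genes were called on that scaling. In females this reading called mt-Tp lower at -0.19 and had 8 members higher, among them mt-Co2 at 0.65, mt-Atp6 at 0.66, mt-Nd6 at 0.37 and mt-Nd2 at 0.21, where 13.6% of all genes were called.

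Males were set against females as the mean over the 4 conditions. Here 8 of 16 members were lower in males and 0 higher, where 23.3% of all genes were called and 11.5% were lower. The largest changes were in genes inside the chromosome 1 copy. mt-Nd4l had 2.98, 6.66 and 14.3 CPM as lowest, median and highest value in males, against 3.28, 10.8 and 21.8 CPM in females, and mt-Atp6 had 47.0, 65.1 and 124 CPM in males, against 42.0, 99.2 and 214 CPM in females. The medians differed and the ranges overlapped. The log2 changes were -0.68 (SE 0.09996, edgeR adjusted p = 2.55e-07) for mt-Nd4l, -0.62 (SE 0.104, edgeR adjusted p = 5.42e-06) for mt-Atp6, -0.50 for mt-Atp8, and -0.49 for both mt-Co2 and mt-Co3. Of the genes outside the copy, mt-Nd2 stood at -0.21 (SE 0.0649, edgeR adjusted p = 0.0133), mt-Co1 at -0.14 (SE 0.0485, edgeR adjusted p = 0.0323) and mt-Nd5 at -0.20 (SE 0.0762, edgeR adjusted p = 0.0470). The call of mt-Co1 ended when 21 of the 80 libraries were left out singly, and that of mt-Nd5 when 53 were, at adjusted p up to 0.0698 and 0.0948. Without the 2 doubted libraries 6 members were lower.

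**Figure D5:**
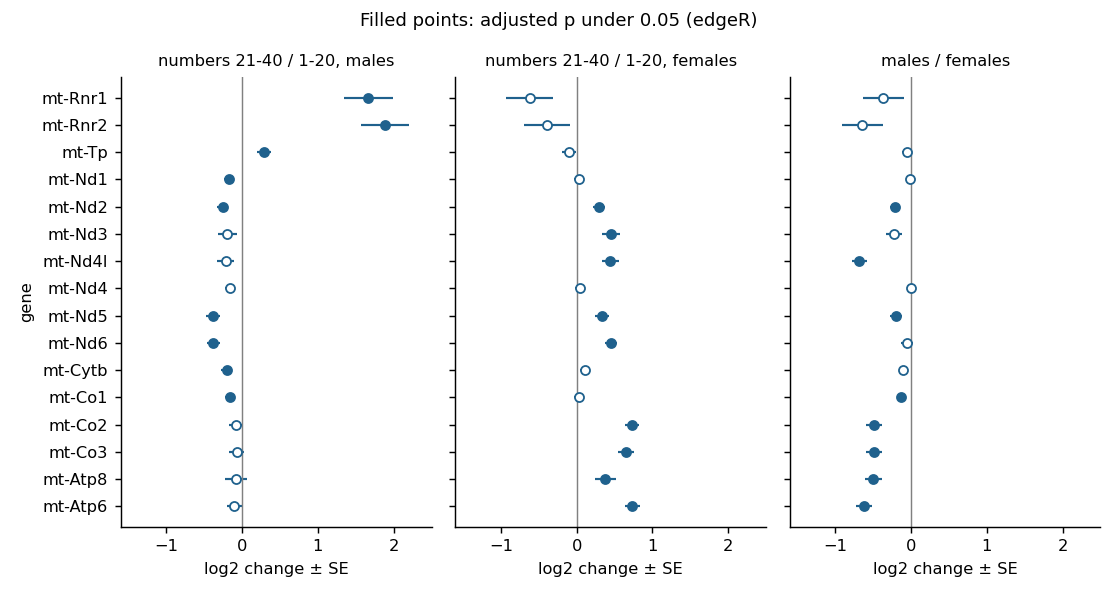
Log2 change of the 16 tested mitochondrial genes at title numbers 21 to 40 against 1 to 20 in males and in females, and in males against females; bars are standard errors and filled points had an adjusted p under 0.05 in edgeR. The rRNA genes lie at 1.67 and 1.89 in the male panel and are open in the female panel, and the genes inside the chromosome 1 copy are all filled in the female panel and, except mt-Nd3, in the panel of males against females.

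The sex difference depended on the run. At numbers 21 to 40, males had 11 members lower than females and 1 higher, where 19.8% of all genes were called. mt-Atp6 had 47.0, 61.0 and 116 CPM in males and 95.0, 119 and 192 CPM in females there, at -0.96 (SE 0.0909, edgeR adjusted p = 1.99e-10), mt-Nd4l stood at -0.99 (SE 0.108, edgeR adjusted p = 5.95e-09) and mt-Rnr1 was higher at 0.49 (SE 0.109, edgeR adjusted p = 0.00116). At numbers 1 to 20, 4 members were lower in males and 1 was higher, where 32.4% of all genes were called. The lower members were mt-Rnr2 at -2.16 (SE 0.416, edgeR adjusted p = 0.000134), mt-Rnr1 at -1.8 (SE 0.417, edgeR adjusted p = 0.00109), mt-Nd4l at -0.32 and mt-Tp at -0.25. mt-Nd6 took opposite signs, at 0.38 (SE 0.0822, edgeR adjusted p = 0.000507) for numbers 1 to 20 and -0.46 (SE 0.0799, edgeR adjusted p = 5.83e-05) for numbers 21 to 40, and the test of that difference is the run effect between the sexes given above. Among the members called in males against females, mt-Nd4l was the single gene that was lower and called in each run.

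In males against females 6 of the 7 chromosome 1 copies were called lower, among them Atp6-ps at -0.80 (SE 0.119). The copies of parts of mt-Nd4 and mt-Co1 stood away from those genes. Gm28439 was at -0.77 (SE 0.113), with mt-Nd4 at -0.00 (SE 0.0540), and Gm29216 was at -0.55 (SE 0.117), with mt-Co1 at -0.14 (SE 0.0485). In females 6 of the 7 were called higher at numbers 21 to 40, and in males 0 were. There Gm28439 was at 0.97, with mt-Nd4 at 0.04, and Gm29216 at 0.91, with mt-Co1 at 0.03. Summing mt-Co2, mt-Atp6, mt-Co3, mt-Nd3 and mt-Nd4l with their chromosome 1 partners kept the 14 calls of these 5 members in the comparisons of sex and run. The sum could hardly have ended a call, since each member's share of its pair varied little between libraries. It is therefore no separate evidence for these calls. No partner of mt-Atp8 was summed. The share of the protein-gene counts on the 6 genes inside the copy was 0.247% in females at numbers 21 to 40, against 0.167% at numbers 1 to 20.

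Nuclear genes that serve the mitochondrial genome were read from lists taken over from earlier work on this table. In none of the treatment comparisons was a gene of these lists called. In males against females, the list for transcription and copying of mitochondrial DNA had 1 of 25 genes higher and 4 lower, or 20% called beside 23.3% of all genes. The lower ones were Top1mt, the mitochondrial topoisomerase, at -0.28 (SE 0.0573, edgeR adjusted p = 0.000225), Polg, the DNA polymerase, at -0.21 (SE 0.0471, edgeR adjusted p = 0.000789), Mgme1, an exonuclease, at -0.13 and Twnk, the helicase, at -0.10. Of 30 tested genes for RNA processing and decay, 6 were higher and 1 was lower, or 23.3%, which is the share of all genes; among them were Supv3l1, a helicase of RNA decay, at 0.11 and Mrm3, which methylates mt-Rnr2, at 0.14. The nuclear subunits of the respiratory chain were mostly higher in males where called, with 17 of 37 for complex I, 3 of 9 for complex III and 6 of 11 for complex IV, and with 7 of 17 higher and 1 lower for complex V. These are 45.9%, 33.3%, 54.5% and 47.1% of the lists. The medians of these 4 lists were 0.12, 0.092, 0.16 and 0.13, beside -0.0076 over all genes. Examples were Ndufb9 at 0.52 (SE 0.0985, edgeR adjusted p = 5.38e-05), Cox7a1, the muscle form of a complex IV subunit, at 0.33 (SE 0.0894, edgeR adjusted p = 0.00467) and Atp5mj at 0.28 (SE 0.0663, edgeR adjusted p = 0.00141). Within numbers 21 to 40 the counts higher and lower in males were 13 and 0 for complex I, 3 and 1 for complex III, 6 and 0 for complex IV and 6 and 1 for complex V. Within numbers 1 to 20 they were 18 and 1, 5 and 0, 3 and 0, and 5 and 0 in the same order. Of all genes, 19.8% were called at numbers 21 to 40 and 32.4% at numbers 1 to 20. At numbers 1 to 20 the lists of complexes IV and V were thus not called above the share of all genes. Of the 10 cardiomyocyte markers, 3 were higher and 0 lower in males within numbers 21 to 40. Within numbers 1 to 20, 2 were higher and 3 lower, beside the same shares of all genes. Markers of other cell types also stood apart between the sexes. Of the atrial markers 5 of 5 were called higher in males, with sums of 6.84 to 2057 CPM in males and 2.58 to 27.04 CPM in females. All 3 tested adipocyte markers were higher, with sums of 0 to 19.9 CPM in males and 0 to 3.48 CPM in females. The fibroblast markers Lum and Pdgfra, 1 macrophage marker and 1 blood cell marker were lower, and 1 endothelial marker was higher, beside 23.3% of all genes called. The part of these in the mitochondrial values was not tested.

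Between the runs of title numbers, the share of a list called in males was 16.2% for complex I, 33.3% for complex III, 9.09% for complex IV and 23.5% for complex V, beside 29.8% of all genes. In females it was 32.4%, 55.6%, 45.5% and 41.2% in the same order, beside 24% of all genes. In males at numbers 21 to 40, 1 gene of complex I was higher and 5 were lower, 3 of complex III, 1 of complex IV and 4 of complex V were lower, among them Uqcrc2, a core subunit of complex III, at -0.27 (SE 0.0467, edgeR adjusted p = 5.56e-06). In females, 5 were higher and 7 lower for complex I, 2 and 3 for complex III, 0 and 5 for complex IV, and 3 and 4 for complex V. Ndufb9 stood at -0.82 (SE 0.105, edgeR adjusted p = 7.77e-09), Ndufb1 at -0.75 (SE 0.0971, edgeR adjusted p = 1.34e-08), Cox8b at -0.61 (SE 0.101, edgeR adjusted p = 3.26e-06) and Cox7a1 at -0.62 (SE 0.104, edgeR adjusted p = 4.89e-06) in females. In the list for RNA processing, 20% were called in males and 23.3% in females, no more than of all genes. Among them Trmt10c, a subunit of the enzyme that cuts the 5′ ends of mitochondrial tRNAs, was lower at numbers 21 to 40 in males, at -0.25 (SE 0.0635, edgeR adjusted p = 0.00187), and in females, at -0.31 (SE 0.0636, edgeR adjusted p = 0.000134). Lrpprc, which stabilises mitochondrial messenger RNAs, was lower in males at -0.16 (SE 0.0569, edgeR adjusted p = 0.0232).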

How the data were processed

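Column-purified total RNA of left ventricular tissue went through poly(A) selection and the NEBNext Ultra II kit, per the labels' protocols. FastQC 0.11.9, STAR 2.7.8a and the builds GRCm39 and mm39 are named, per the submitters' processing notes. The sources used here do not give the counting tool, its use of strand or its annotation. The authors deposited 1 table of raw read counts per gene, with whole numbers for 56941 genes and 80 libraries, and it was used as deposited. Totals of 13484776 to 22143504 counts per library set the precision.

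Genes were placed by identifier with GENCODE release M39 on GRCm39. Counts were tested in R 4.3.3 with edgeR 4.0.16 (TMM scaling with factors of 0.868 to 1.14, filterByExpr, glmQLFit and glmQLFTest), with Benjamini-Hochberg adjustment over 15879 genes and a threshold of 0.05. Treatments and sexes came from a fit with 1 mean per group, and title runs from a fit with 1 mean per group and run. A standard error is the log2 change divided by the square root of its F value. CPM values are TMM-scaled, except that per-kilobase levels, marker sums and shares use library totals. Shares were described without a test. Correlations between libraries used log2(CPM + 1) of 16092 genes with 10 or more counts in 10 or more libraries. The tests were also run on simulated counts with the same spread for all genes. Those held no gap between libraries like that of the rRNA genes, so they do not cover these members. The labels do not say that libraries come from separate animals, so p-values measure the spread between libraries, which may be technical.

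Nuclear copies were found with blastn at 80% identity or more, and windows of 150 bases were matched exactly. Of the members, all 37 are accounted for, and tests are printed for those called, or for the one of smallest p where none was; of each nuclear list, up to 4 called genes of smallest p could be named. The members and lists were chosen with earlier results of these data known, and the list of chromosome 1 copies and its sums were added after seeing the data. Alternatives were library sizes, the filter, DESeq2 1.42.0, single runs, a replicate block, and leaving out libraries.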

Additional observations from a re-analysis of the deposited data

Results flagged for a closer look

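In the 176 groups of 10 values examined for a library apart from the rest, 20 values from 9 libraries stood out, and chance gives about 1 in 20 groups. Male sham replicate 5 had 0.182% rRNA among its mitochondrial counts, with the nearest of its group at 2.55%, and 174 CPM of mt-Rnr1, with the nearest at 1908 CPM. Female gamma replicate 2 had 11976 CPM of mt-Rnr2, with the nearest at 8165 CPM. Male mixed-field replicate 3 was high in genes inside and outside the chromosome 1 copy, at 124 CPM of mt-Atp6, 215 CPM of mt-Co3, 35509 CPM of mt-Nd5, 7675 CPM of mt-Nd6 and 60650 CPM of mt-Cytb. Male gamma replicate 7 was high in genes inside the copy, at 223 CPM of mt-Co2, 116 CPM of mt-Atp6, 223 CPM of mt-Co3 and 10.2 CPM of mt-Nd4l, and in the complex V share, at 0.0449% of the protein-gene counts. Female gamma replicate 4 stood apart with 8.70 CPM of mt-Atp8 and 54.0 CPM of mt-Nd3, and male gamma replicate 1 with 18719 CPM of mt-Nd5. In the balance of complexes, female sham replicate 9 had 42.1% on complex I and 39.2% on complex IV, male sham replicate 6 had 20.2% on complex III, and male Western-diet replicate 9 had 0.0434% on complex V.

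The effect of the title runs differed between the sexes for 12 genes by edgeR's test of the difference. As male minus female log2 change, mt-Rnr1 stood at 2.29 (adjusted p = 6.26e-05), mt-Rnr2 at 2.28 (adjusted p = 4.92e-05) and mt-Tp at 0.39 (adjusted p = 0.0136). The protein genes called were mt-Nd6 at -0.83 (adjusted p = 9.8e-08), mt-Co2 at -0.81 (adjusted p = 3.25e-06), mt-Atp6 at -0.84 (adjusted p = 9.62e-06), mt-Nd5 at -0.73 (adjusted p = 1.76e-05) and mt-Nd2 at -0.55 (adjusted p = 8.48e-05). They also included mt-Co3 at -0.72 (adjusted p = 0.0001), mt-Nd4l at -0.67 (adjusted p = 0.0012), mt-Nd3 at -0.65 (adjusted p = 0.00327) and mt-Cytb at -0.32 (adjusted p = 0.00726).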

How the results depend on the processing

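For the treatments, the sexes and the runs of each sex, 1677 values of counts and shares stayed within 1.5 times the main count or 1 SD of the main share, and 7 did not. Most of these values set 0 against 0, since treatment comparisons called 0 members with each of the 80 libraries left out. The fits without single libraries kept the spread estimated from all 80, so this total says little about stability. For the runs within single conditions, only the alternative without the 2 doubted libraries is given here, where the count in mixed-field females was 5 instead of 11. Kept to title numbers 1 to 20, the count of members called in Western-diet males was 2 instead of 0, in mixed field against gamma rays in females 5 instead of 0, and in males against females 5 instead of 8, with 1 higher and 4 lower. Kept to numbers 21 to 40, mixed field against gamma rays in females called 2, and 0 without female gamma replicate 7 and female mixed-field replicate 10, an alternative chosen after seeing the data. With the mitochondrial total as library size, the run comparison in males called 5 members instead of 9, where 30.6% of all genes were called. Counted per kilobase, the complex V difference was 0.0346 points between the female runs, instead of 0.0182, and -0.0262 points for males against females, instead of -0.0128. Signs turned for mt-Nd2 at 0.0781 (adjusted p = 0.424) and mt-Nd5 at 0.17 (adjusted p = 0.182) in males against females at numbers 1 to 20, and for mt-Co1 at 0.0014 (adjusted p = 0.981) in the male runs with the mitochondrial total as library size. The causes were not tested.

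Of the 38 calls of single members, DESeq2 kept 38, nuclear genes as library size 37, totals without TMM 36, no filter 34, leaving out the 2 doubted libraries 35, and the mitochondrial total as library size 30, with 7 weaker and 1 reversed. Of the 8 sex calls, numbers 1 to 20 alone kept 1, with 5 weaker and 2 reversed, and numbers 21 to 40 alone kept 8. With single libraries left out, treatments called 0 members throughout, males against females 6 to 8, the male runs 7 to 10, the female runs 8 to 9 and the difference of runs 12 to 15. Male and female libraries of the same title number were set side by side by their deviations from the group mean. Over 40 pairs the correlation of these deviations had a median of 0.0166, 8 were over 0.1, and 0 males matched their own number best. The group means spanned both runs, so the deviations held the run differences and cannot decide whether libraries were paired. With the title number as a replicate block, males against females called 8 members and kept 7 of the 8 calls. Reads wholly within the 6 genes inside the chromosome 1 copy cannot be placed by sequence, except across the differing base of mt-Nd3. The 19 tRNA genes at 0 could not be tested.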
